A study of Mus musculus with 2 samples.

Results

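The triad genes of excitation-contraction coupling were followed across single muscle fibres. They comprise the 10 listed genes Ryr1, Cacna1s, Cacnb1, Cacna2d1, Cacng1, Stac3, Jph1, Jph2, Trdn and Jsrp1 and were taken by name, as known parts of the junction, out of 35163 gene rows in the count table. The fibres came from the flexor digitorum brevis (FDB), a fast muscle of the sole of the foot, of 1 untreated C57BL/6J mouse older than 3 months. After collagenase digestion, single fibres, and fibre fragments from muscle cut with scissors, were sorted by size with large-particle flow cytometry, and their RNA was read with mcSCRB-seq, a plate-based method that counts each captured molecule once through a unique molecular identifier (UMI). Of 763 cells on 8 plates and 2 sequencing lanes, of which 93 are labelled fragments, 171 had more than 5000 genes and under 20% mitochondrial counts and were kept. A plate here is a set of cells with the same index label, and that each such set is 1 plate is inferred. Each was classed by its largest myosin heavy chain count, which gave 117 fast 2X cells (Myh1), 51 fast 2A cells (Myh2), 2 slow cells (Myh7) and 1 fast 2B cell (Myh4). Because all cells came from 1 mouse, cells are not replicates and no p-value is given. The 95% limits below cover counting error only.

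A nerve impulse reaches the inside of a muscle fibre along the T-tubules, which meet the sarcoplasmic reticulum at junctions called triads. There the L-type calcium channel of the T-tubule acts as a voltage sensor and opens the ryanodine receptor in the reticulum, and the calcium released starts contraction. Junctophilins hold the membranes together, while triadin and its partners tie the release channel to the calcium store. Fast and slow fibres are known to differ in how much of this machinery they carry.

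The promoters are shown first, because the voltage sensor and the release channel are the pair of molecules on which the junction rests. RefSeq promoter windows (build GRCm38.p6) were matched for 5 of the 10 members, Ryr1, Cacna1s, Cacnb1, Cacna2d1 and Jph2, in 7 entries. Bases inside the annotated gene were left out, and capitals mark CANNTG, the E-box that muscle regulatory factors of the MyoD family recognise, searched on both strands (it reads as CANNTG on either). The windows of Cacna1s (chr1:136052561-136052749, plus strand), Ryr1 (chr7:29125180-29125401, minus strand), Jph2 (chr2:163397994-163398243, minus strand) and Cacna2d1 (chr5:15934441-15934690, plus strand) read:
Cacna1s: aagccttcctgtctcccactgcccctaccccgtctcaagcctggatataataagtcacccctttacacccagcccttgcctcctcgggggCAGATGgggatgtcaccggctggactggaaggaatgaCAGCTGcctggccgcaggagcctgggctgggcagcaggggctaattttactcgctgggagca
Ryr1: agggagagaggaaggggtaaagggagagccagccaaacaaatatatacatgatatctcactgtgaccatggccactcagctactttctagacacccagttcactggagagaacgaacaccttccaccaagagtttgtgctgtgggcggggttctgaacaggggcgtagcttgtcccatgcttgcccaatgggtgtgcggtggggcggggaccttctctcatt
Jph2: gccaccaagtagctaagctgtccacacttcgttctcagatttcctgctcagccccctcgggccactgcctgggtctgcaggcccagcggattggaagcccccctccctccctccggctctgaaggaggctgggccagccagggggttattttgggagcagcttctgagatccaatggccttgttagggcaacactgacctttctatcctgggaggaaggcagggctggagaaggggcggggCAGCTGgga
Cacna2d1: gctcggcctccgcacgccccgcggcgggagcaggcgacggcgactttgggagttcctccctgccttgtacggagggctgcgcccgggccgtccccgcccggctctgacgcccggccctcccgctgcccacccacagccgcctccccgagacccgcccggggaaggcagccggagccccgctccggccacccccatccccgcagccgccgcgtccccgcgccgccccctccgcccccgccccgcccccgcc

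Counts here are over the full 250 bases before the start, of which 189 are printed for Cacna1s and 222 for Ryr1. Cacna1s held 2 E-boxes, Jph2 held 1, and Ryr1 and Cacna2d1 held 0. The 2 entries of Cacnb1, not printed, held 0 and 1. At least 1 E-box was found in 66.2% of all 32851 promoter windows and at least 2 in 31.8%. The GC-rich letters GGGCGG, found on either strand in 32.7% of windows, occurred 6 times before Cacna2d1 and 2 times before Ryr1. They occurred 1 time before each of Cacna1s and Jph2, and 5 and 0 times in the 2 entries of Cacnb1. GC content was 82.4% before Cacna2d1 and 54.8% before Ryr1. The letters TATAAA, present in 12.4% of windows, were in none of the 7 member windows.

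Before the members are described, 8 of the 171 kept cells have to be named, since they stood apart in the skeletal muscle markers (Acta1, Ttn, Neb, Ckm and Myh1). In these 8 cells the markers summed to between 20511 and 35912 CPM (counts scaled to a common total), whereas the other 163 cells began at 77212 CPM. They comprised 6 fast 2X cells, 1 fast 2A cell and the 1 fast 2B cell. One of the fast 2X cells held 10712 CPM of the smooth muscle and pericyte markers and another held 3032 CPM of the Schwann cell markers, against at most 228 and 94.6 CPM in the 163 other cells. Endothelial markers reached 1615 CPM in the 8 cells and at most 308 CPM in the others, and fibroblast markers reached 2843 CPM and at most 393 CPM. The 10 members made up 0.217% to 0.391% of the counts in the 8 cells and at least 0.671% in every other kept cell. The single fast 2B cell thus lay below each of the 163 in muscle markers, and its class name rests on Myh4 alone. For the members, the median ratios, the count past 1.5-fold and several ranges and correlations are also given without these cells. All other values include them unless stated. Among those are the pathway ratios and the correlations with depth, mitochondrial share and Myh2 share. The 8 cells were singled out after the data were seen.

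Over the kept cells, the skeletal muscle markers summed to 117134 CPM. The other marker lists were lower, with 123 CPM for heart muscle (Myl7 at 0), 65.7 for endothelium, 56.4 for fibroblasts, 44.3 for smooth muscle and pericytes, 24.4 for Schwann cells, 17.9 for red blood cells, 14.8 for satellite cells and 13.9 for immune cells. Without the 8 cells the fibroblast, smooth muscle and Schwann cell lists summed to 36.8, 26.9 and 13.3 CPM. Each fibre list holds a myosin that sets the class, so that its contrast is partly fixed by the rule. The fast 2X list, with Myh1, stood at 21428 CPM in fast 2X and 6070 CPM in fast 2A cells, and the slow or fast 2A list at 4566 and 17025 CPM, of which Myh2 made up 3372 and 8853 CPM. Kept cells held between 28827 and 1542996 counts, with a median of 255726 in fast 2X and 206510 in fast 2A cells. No barcode was shared between the lanes.

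Together the members held 522354 of 51923865 counts in the kept cells, or 1.01%. The share was 1.06% in fast 2X cells and 0.862% in fast 2A cells. It was 0.749% in the slow cells. Most of these molecules came from the release channel and its anchor. Ryr1 supplied 46.1% of the member counts, and Trdn, at 2582 CPM against 4641 CPM for Ryr1, was the next most counted. Both were found in 171 of 171 cells, as were Jsrp1, Cacna2d1, Jph1, Cacng1 and Cacnb1. Jph2 was found in 170, Cacna1s in 160 and Stac3 in 157 cells. Among the 163 cells with full marker levels, Jph2 was found in all, while Cacna1s and Stac3 were missing from 8 and 9. Thinning each cell to the 28827 counts of the shallowest one left Cacna1s in 122 cells and Stac3 in 104 cells, so that their absence from some cells is not separable from depth.

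Per kilobase of exon the order of the levels was different. Jsrp1 led with 557 CPM per kb and Cacng1 followed with 339 CPM per kb. Trdn stood at 276 and Ryr1 at 213 CPM per kb. The junctophilins were close to each other, with 85.9 CPM per kb for Jph1 and 77.2 for Jph2. Cacnb1 and Cacna2d1 had 56.8 and 44.9 CPM per kb, whereas Stac3 had 14.2 and Cacna1s, the voltage sensor itself, was lowest at 9.53 CPM per kb. The counting limits of neighbours in this order did not overlap on the CPM scale divided by the same lengths, but the spread between mice is unknown. The method captures RNA at its poly(A) end, so that counts need not grow with gene length, and the order differs between the scales. The paper counted with the program zUMIs at default settings and does not state whether intronic reads were included. If they were, the exonic length would not be the whole counted length, above all for Cacna2d1 and Trdn with gene bodies of 439821 and 396156 bases.

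**Figure D1:**
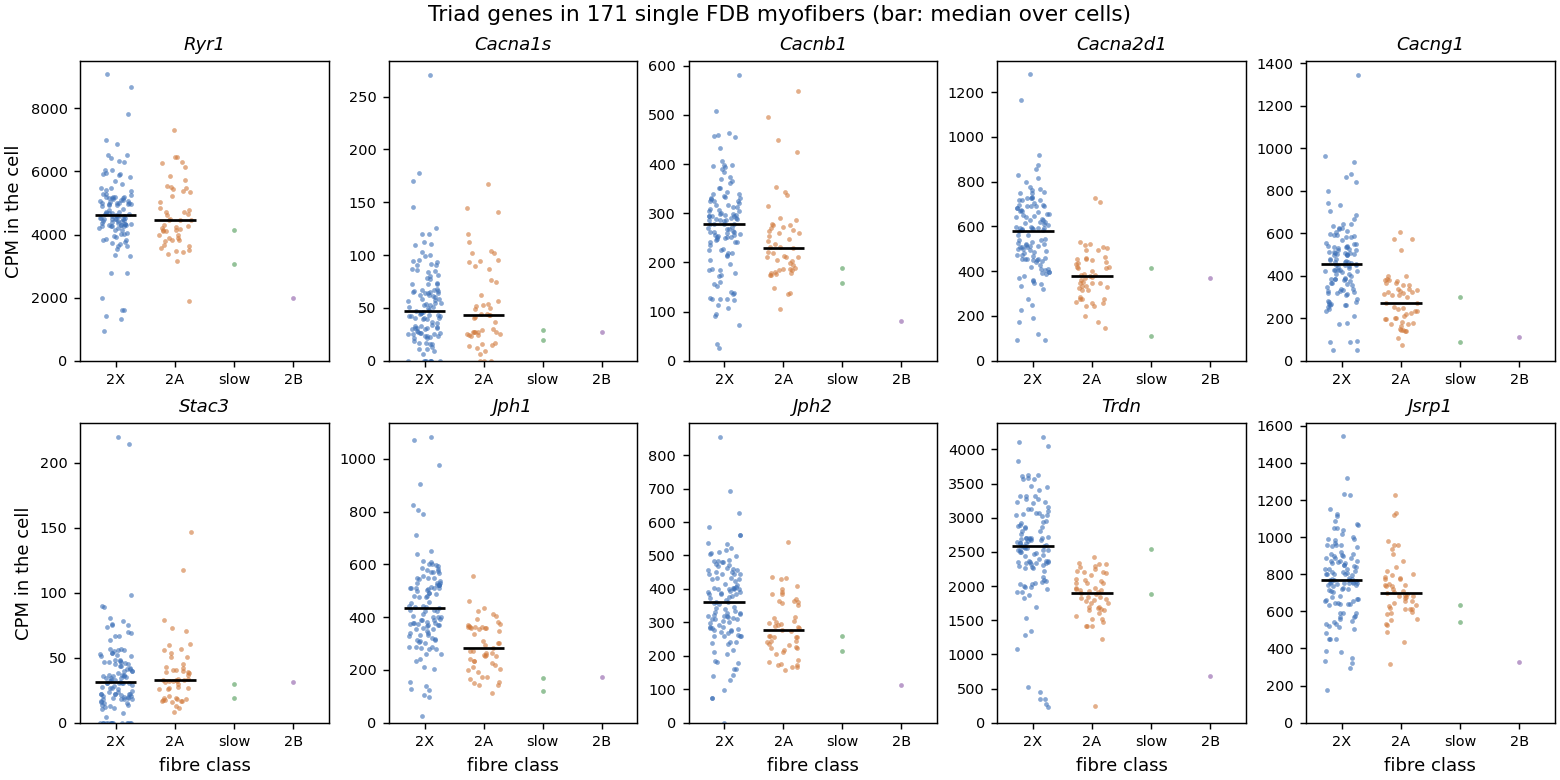
CPM of each triad gene (y axis, linear, from 0) in each of the 171 kept cells by fibre class (x axis), 1 point per cell, with a bar at the median of the fast 2X and fast 2A cells. The fast 2A medians lie below the fast 2X medians for Cacna2d1, Cacng1, Jph1 and Trdn, while Ryr1, Cacna1s and Stac3 have medians near each other, and a few fast 2X cells lie far below the rest for Trdn.

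Ryr1 encodes the calcium release channel of the reticulum and lies on the minus strand of chromosome 7 (29003344 to 29125179, GRCm38). In fast 2X cells it ranged from 939 to 9090 CPM around a median of 4622 CPM, and in fast 2A cells from 1902 to 7316 CPM around a median of 4447 CPM. The classes overlapped over almost the whole range. Without the 8 cells that stood apart, the lowest fast 2X cell had 2777 CPM and the lowest fast 2A cell 3167 CPM. The summed levels of 4747 and 4415 CPM gave a log2 ratio of fast 2A over fast 2X of -0.10 (limits -0.12 to -0.09). Ryr1 varied least after Trdn among the members in fast 2A cells, with a coefficient of variation of 22.4% against 3.82% for counting alone.

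Ryr1 made up 95.8% of the counts of the 3 ryanodine receptor genes, with Ryr3 at 2.60% and Ryr2, the heart channel, at 1.60%. Ryr3 differed between the classes more than any member. It stood at 147 CPM in fast 2X and 58.2 CPM in fast 2A cells, a log2 ratio of -1.33 (limits -1.45 to -1.22), and was lower in fast 2A cells on 6 of 6 plates. The ratio was smaller as a mean over cells (-0.94) and as a median over cells (-0.79), the medians being 104 and 60.2 CPM. In the summed counts, the count of Ryr1 for each count of Ryr3 was 32.4 in fast 2X and 75.9 in fast 2A cells.

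Cacna1s encodes the pore and voltage sensor of the L-type channel and lies on the plus strand of chromosome 1 (136052750 to 136119822). Its values ran from 0 to 270 CPM in fast 2X cells, with a median of 47.2 CPM, and from 0 to 167 CPM in fast 2A cells, with a median of 43.2 CPM. The classes overlapped throughout. The log2 ratio of -0.05 had limits of -0.17 to 0.07 that include no difference. Ryr1 was counted 74.4 times for each count of Cacna1s, 74.8 times in fast 2X and 71.9 times in fast 2A cells. The limit on Cacna1s counts given next applies to these values too.

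Cacna1s was also the member whose counts are least certain. Its last exon (136118957 to 136119822) lies wholly inside Gm37759, a gene annotated on the opposite strand, and 1309 of its 6550 exonic bases are shared with that gene. Of 8022 protein-coding genes with at least 500 counts, 2.42% have their last exon wholly within another gene. Gm37759 itself held 56 counts. The paper used zUMIs with default settings and does not state how strand was handled, and the effect on Cacna1s was not tested. Among the L-type pore genes Cacna1s held 3240 of 6354 counts, Cacna1c 26.6% and Cacna1d 21.4%. No stretch of 66 bases, the read length, was shared between the transcripts of any member and those of its paralogs in the families named here.

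The accessory subunits of the channel did not move alike. Cacnb1, the cytoplasmic beta subunit that brings the channel to the membrane, had medians of 278 CPM in fast 2X (25.4 to 582) and 229 CPM in fast 2A cells (106 to 548). Its log2 ratio was -0.22 (limits -0.28 to -0.16), and 41 of 51 fast 2A cells lay below the fast 2X median although the ranges overlapped. Its lowest fast 2X value without the 8 cells was 72.7 CPM. It supplied 86.2% of the counts of the beta subunit genes.

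Cacna2d1, the extracellular alpha2delta subunit, had a median of 578 CPM in fast 2X cells (91.4 to 1280) and 378 CPM in fast 2A cells (146 to 729). Of the 51 fast 2A cells, 49 lay below the fast 2X median, and the lowest fast 2X value without the 8 cells was 94.1 CPM. The log2 ratio was -0.62 (limits -0.66 to -0.57), or 1.53-fold lower in fast 2A. Its paralog Cacna2d3 differed little, at -0.10, so that Cacna2d1 supplied 75.7% of the alpha2delta counts in fast 2X and 68.7% in fast 2A cells.

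Cacng1, the gamma subunit found in skeletal muscle and known to restrain the channel current, differed most. The medians were 453 CPM in fast 2X (49.8 to 1345) and 272 CPM in fast 2A cells (73.9 to 608), and 47 of 51 fast 2A cells were below the fast 2X median. The lowest values without the 8 cells were 94.1 and 107 CPM. Its log2 ratio of -0.75 (limits -0.80 to -0.69) corresponds to a level 1.68-fold lower in fast 2A. Cacng6, the next most counted gamma subunit gene, had a log2 ratio of -0.17, and the share of Cacng1 among gamma subunit counts was 77.8% in fast 2X and 70.7% in fast 2A cells. In fast 2X cells Cacng1 had a Spearman correlation of -0.43 with the mitochondrial share of the cell, and the median mitochondrial share was 5.01% in fast 2X and 6.96% in fast 2A cells. The part of this in the class difference was not tested.

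Stac3, the adaptor that the skeletal channel needs to reach and work at the triad, was the least counted member. Its medians were 31.2 CPM in fast 2X (0 to 220) and 32.9 CPM in fast 2A cells (8.29 to 146). The ratio of 0.07 had limits of -0.09 to 0.22. Stac3 was the only member with a log2 ratio above 0, and its limits include no difference. It held 75.1% of the counts of the STAC genes.

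The junctophilins tie the T-tubule to the reticulum, Jph1 being the skeletal muscle form and Jph2 the form shared with the heart. Jph1 had a median of 435 CPM in fast 2X (24.9 to 1083) and 282 CPM in fast 2A cells (111 to 557), with 49 of 51 fast 2A cells under the fast 2X median. Its log2 ratio was -0.68 (limits -0.73 to -0.62), or 1.60-fold lower. Jph2 had medians of 362 (0 to 853) and 276 CPM (158 to 541), with a log2 ratio of -0.38 (limits -0.44 to -0.33). Without the 8 cells the lowest fast 2X values were 97.0 CPM for Jph1 and 127 CPM for Jph2. The count of Jph1 for each count of Jph2 was 1.36 in fast 2X and 1.11 in fast 2A cells, and Jph1 exceeded Jph2 in 84 of 117 fast 2X cells and in 25 of 51 fast 2A cells. Jph1 shares 34 exonic bases with the antisense gene Gm28376, which was counted at 132 CPM.

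Trdn, the triadin that links the release channel to calsequestrin, had the most fast 2A cells below the fast 2X median, although the ranges overlapped. It had a median of 2583 CPM in fast 2X (233 to 4189) and 1899 CPM in fast 2A cells (240 to 2419), and all 51 fast 2A cells lay below the fast 2X median. The lower quartile of the fast 2X cells, at 2287 CPM, was below the highest fast 2A value. The log2 ratio of -0.52 (limits -0.54 to -0.50) stayed short of 1.5-fold. Outside the 8 cells that stood apart, the lowest Trdn value was 1084 CPM. Ryr1 was counted 1.70 times for each count of Trdn in fast 2X cells and 2.27 times in fast 2A cells.

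Jsrp1, which encodes JP-45, a reticulum protein that binds the voltage sensor and calsequestrin, had medians of 771 (174 to 1546) and 696 CPM (314 to 1224). Its log2 ratio of -0.15 (limits -0.18 to -0.11) was near that of Ryr1, and the ranges of the classes overlapped. Without the 8 cells the lowest values were 386 CPM in fast 2X and 435 CPM in fast 2A cells.

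**Figure D2:**
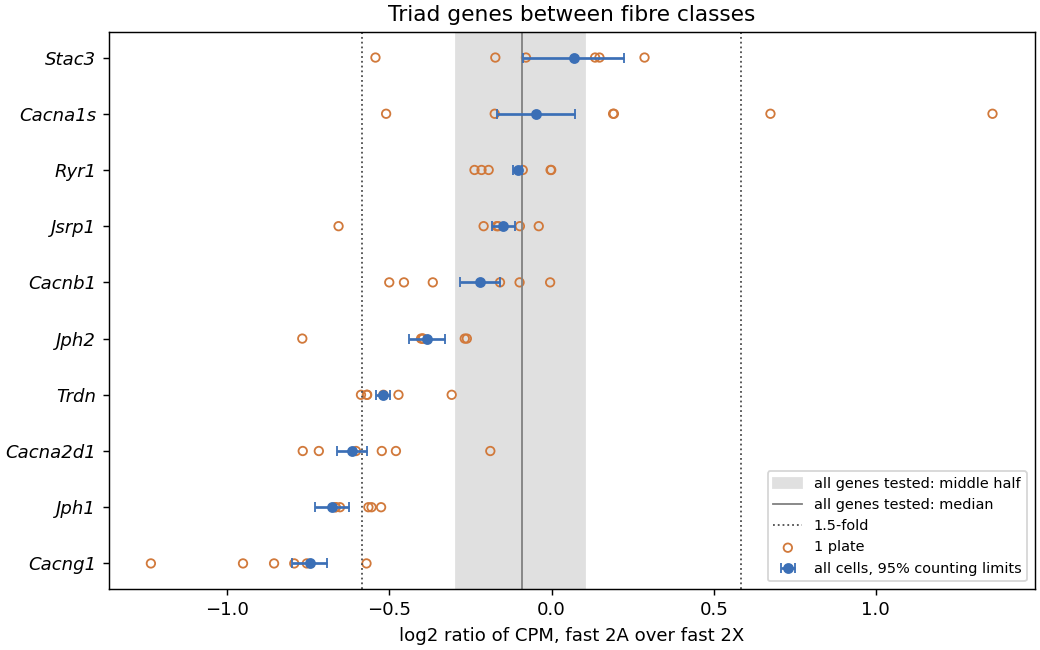
Log2 ratio of CPM in fast 2A over fast 2X cells (x axis) for each triad gene (y axis): filled points give all cells with 95% counting limits, open points give single plates, and the grey band and line give the quartiles and median of the 8646 genes tested. Cacng1, Jph1 and Cacna2d1 lie past 1.5-fold (dotted lines) on the lower side, and the plates of Cacna1s and Stac3 lie on both sides of 0.

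Counted together, 9 of the 10 members had a lower level in fast 2A cells, and 3 of them (Cacng1, Jph1 and Cacna2d1) were past 1.5-fold lower, where 7.31% of the 8646 genes with at least 500 counts were. None was past 1.5-fold higher, against a background of 2.57%. A ratio below 0 was common, since 56.3% of all genes tested lay below that of Cacna1s (-0.05). Ryr1 (-0.10) lay above 48.4% of these genes. The median log2 ratio was -0.30 over the members and -0.09 over all genes tested. With the 8 cells left out, the count remained 3 and the median was -0.31, the fast 2A cells under the fast 2X median being 50 of 50 for Trdn and 48 of 50 for Cacna2d1 and Jph1. Scaling by TMM factors moved every ratio up by 0.11, which left Cacng1 alone past 1.5-fold and turned Ryr1 to 0.01 and Cacna1s to 0.06. With TMM, 49.3% of the genes past 1.5-fold were higher in fast 2A, compared with 26.0% with totals.

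Plate by plate, where both classes had 5 cells or more, 8 members were lower in fast 2A cells on 6 of 6 plates. Some of these values were near 0 with limits that include it, such as Ryr1 on plates 707 (-0.001) and 711 (-0.003) and Cacnb1 on plate 707 (-0.004). The median of all genes was also below 0 on each plate, from -0.20 on plate 711 to -0.004 on plate 709. The share of all genes lower on 6 of 6 plates was not computed. Among the 8 members Jph1 was the steadiest, between -0.67 and -0.53, and Cacng1 ran from -1.24 to -0.57. Cacna2d1 ran from -0.77 to -0.19, the smallest difference being on plate 705 with its 6 fast 2X cells. Cacna1s was lower on 2 of 6 plates, with values from -0.51 to 1.36, and Stac3 on 3 of 6, from -0.54 to 0.29. On the lanes, Cacng1 had -0.90 on lane 1 and -0.57 on lane 2, and Jph1 had -0.69 and -0.64.

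Many fast 2X cells also carried Myh2, which allowed the members to be set against the Myh2 share of the cell. The 48 fast 2X cells in which Myh2 was under 20% of Myh1 plus Myh2 were compared with the 69 hybrid fast 2X cells with more, among which were the 3 kept fragments. From low-Myh2 to hybrid cells, 9 of 10 members had a log2 ratio below 0, and none was past 1.5-fold lower, as were 0.976% of the 7581 genes tested. The median was -0.18 over the members and 0.00 over all genes, and 45.8% of all genes lay below the ratio of Cacnb1 (-0.02). Since 6 of the 8 cells with low muscle markers were hybrids, the values were recomputed on the other 63 hybrids, which gave a median of -0.15 and turned Cacnb1 to 0.01.

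Jph1 had the lowest ratio between these groups. Its summed level was 525 CPM in low-Myh2 cells, 413 CPM in hybrids and 297 CPM in fast 2A cells, and the ratio of hybrids over low-Myh2 cells was -0.35, or -0.31 on the 63 hybrids. Trdn passed from 3013 to 2509 and 1946 CPM. Cacna2d1 passed from 650 to 561 and 398 CPM. Cacng1 passed from 497 to 437 and 280 CPM, so that most of its difference lay between hybrids and fast 2A cells. Jsrp1 stood at 760, 770 and 689 CPM and showed no step between the fast 2X groups. Low-Myh2 cells were also deeper, with a median of 330043 counts against 176742 in hybrids. Within fast 2X cells, Spearman correlations with the depth of the cell were 0.39 for Cacna2d1, 0.38 for Trdn, 0.33 for Cacna1s and 0.32 for Jph1. They lay between -0.05 (Jph2) and 0.17 (Stac3) for the other members. The part of depth in these steps was not tested. For fast 2A over fast 2X, thinning every cell to 28827 counts, which also gives each cell the same weight, kept the ratios of all members but Stac3 below 0. It left Cacng1 (-0.66) and Jph1 (-0.64) past 1.5-fold lower, as were 1123 of the 8646 genes tested. Cacna2d1 came to -0.54, short of that fold, and Jph2 to -0.14. These values came from 1 random draw and have no limits. The mean over cells, which also gives each cell the same weight, was -0.55 for Cacna2d1 and -0.32 for Jph2.

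**Figure D3:**
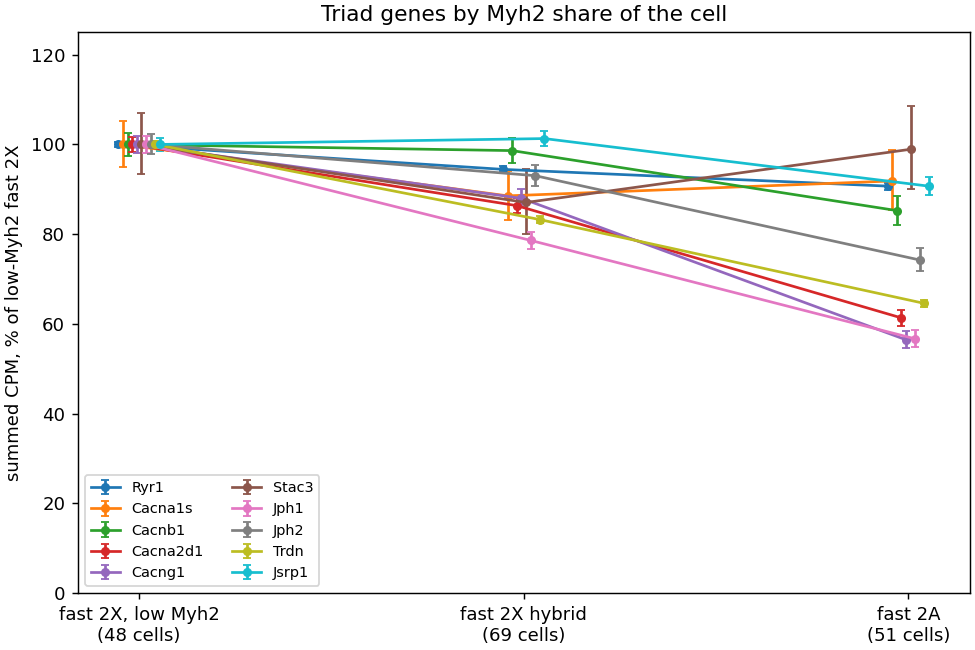
Summed CPM of each triad gene as a percentage of its level in low-Myh2 fast 2X cells (y axis) in low-Myh2 fast 2X, hybrid fast 2X and fast 2A cells (x axis), with 95% counting limits. The lines of Jph1, Trdn, Cacna2d1 and Cacng1 fall at each step, whereas those of Ryr1, Cacna1s, Stac3 and Jsrp1 end nearer to 100%.

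The classes with few cells allow values only. The slow cells had 3070 and 4154 CPM of Ryr1 and 2550 and 1878 CPM of Trdn. Both had more Jph2 (215 and 258 CPM) than Jph1 (169 and 119 CPM), the reverse of the order in the fast 2X sum. The cell labelled fast 2B had 1984 CPM of Ryr1 and 689 CPM of Trdn, with 6 of 117 fast 2X cells below it for either gene, and these 6 were the fast 2X cells with low muscle markers.

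The other genes of the pathway showed larger class differences than the members in places. Of the 13 tested release channel partners and proteins of the reticulum lumen, 2 were past 1.5-fold higher in fast 2A cells and 3 were past it lower. The scaffold protein Homer2 was the highest, at 140 CPM in fast 2A against 33.7 CPM in fast 2X cells (log2 2.05, limits 1.95 to 2.16), and was higher on 6 of 6 plates. Casq2, the calsequestrin of heart and slow fibres, was also higher (0.96), though on 5 of 6 plates. Casq1, the fast fibre calsequestrin that stores the calcium, was lower (-0.83, from 1467 to 827 CPM), and so was Calm3, a calmodulin gene (-0.63). Tmem38b, a counter-ion channel, was lower as well (-0.60). Both were lower on 5 of 6 plates, and neither was past 1.5-fold with TMM factors (-0.52 and -0.48), on lane 2 (-0.47 and -0.46) or as a mean over cells (-0.58 and -0.44), so that Casq1 alone remained past it on the lower side in each. The most counted others, Tmem38a and Srl, had -0.11 and -0.20.

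The T-tubule and triad assembly list had none of its 9 tested genes past 1.5-fold, with a median of -0.15. The genes named from it are Bin1 (-0.34), which shapes the T-tubule membrane, Speg (-0.13) and Sypl2 (-0.20). In store-operated entry 4 genes were tested. The calcium sensor Stim2 was lower in fast 2A cells (-1.33, limits -1.58 to -1.10), at 13.7 against 34.5 CPM, while Stim1 (0.09), Orai1 (-0.19) and Trpc4 (0.20) were not past 1.5-fold. Of the 8 tested paralogs of the members, Ryr3 alone was past it, and the median was -0.18. These counts stand against the same background of 7.31% lower and 2.57% higher. Jph3 was not analysed here.

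**Figure D4:**
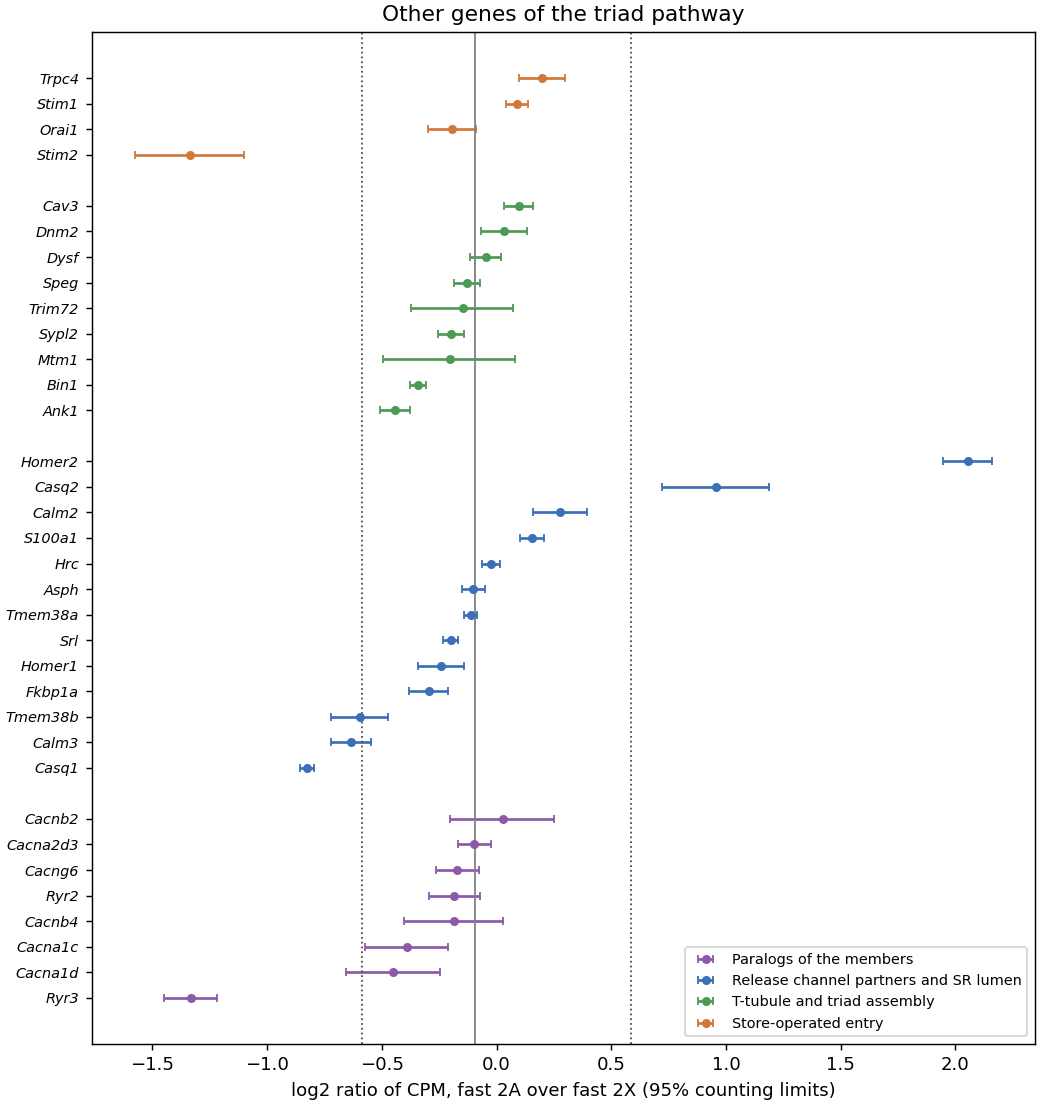
Log2 ratio of CPM in fast 2A over fast 2X cells (x axis) with 95% counting limits for the tested genes of the 4 pathway lists (y axis, coloured by list); the grey line is the median of all genes tested and dotted lines mark 1.5-fold. Homer2 and Casq2 lie past the upper line, and Ryr3, Stim2, Casq1, Calm3 and Tmem38b past the lower one.

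From cell to cell the members rose and fell together in part. Spearman correlations of log2(CPM + 10) over the 171 cells were above 0 in 42 of 45 pairs, with a median of 0.29 and a range from -0.14 to 0.72. The cells share plates, depth and the class difference, so that these are descriptions. Cacna2d1 and Trdn were the closest pair (0.72), followed by Jph1 and Trdn (0.64). Without the 8 cells that stood apart the median was 0.19, and these pairs had 0.69 and 0.59. Within the 111 fast 2X cells left then, the median was 0.14, with 38 of 45 pairs above 0 and a range from -0.31 to 0.63. Pairs of other genes were not computed for comparison. Cacna1s and Jph2 had the lowest value, at -0.14 over the 171 cells and -0.24 without the 8 cells. Ryr1 correlated with Cacna1s at only 0.21, or 0.14 without them.

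**Figure D5:**
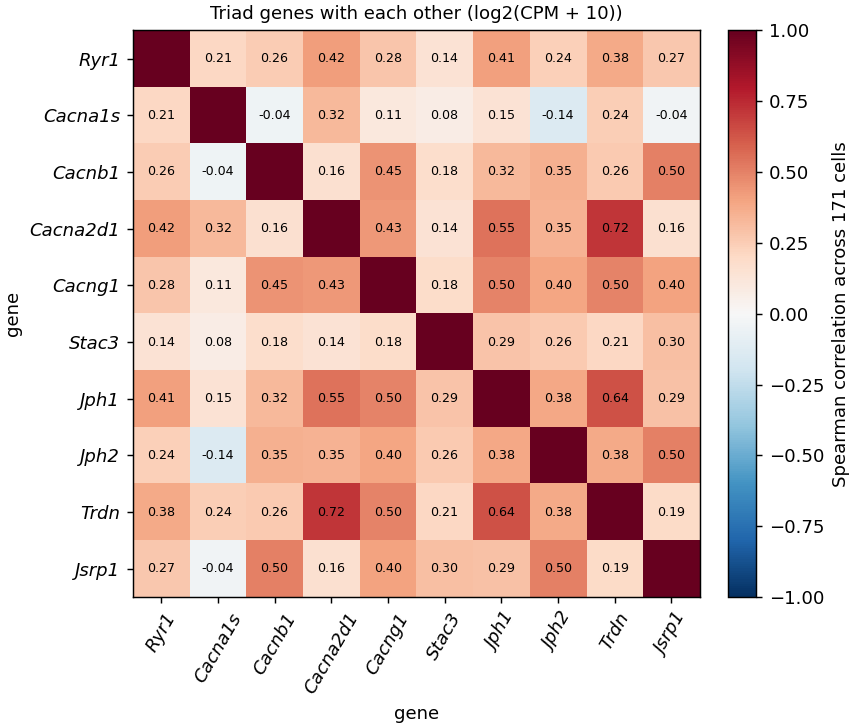
Spearman correlation of log2(CPM + 10) between each pair of triad genes (both axes) across the 171 kept cells, with the value printed in each square and colour from -1 (blue) to 1 (red). The reddest square off the diagonal is Cacna2d1 with Trdn at 0.72, and the palest rows are those of Cacna1s and Stac3.

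Among 8736 other genes with at least 500 counts, the profile nearest to the mean of the members was that of Casq1 (Spearman 0.79 over 171 cells). Actn3 (0.77) and Pvalb (0.76), both genes of fast fibres, came next, followed by Mss51 (0.75) and Myh8 (0.73), which itself was one of the genes read for the fibre class. The same 5 genes led on the 163 cells, with values from 0.75 to 0.70. The Myh2 share of a cell had Spearman correlations of -0.68 with Trdn, -0.62 with Jph1, -0.56 with Cacna2d1 and -0.55 with Cacng1, but of -0.15 with Ryr1 and -0.10 with Stac3. As this share sets the class, these values in large part restate the class difference. Within fast 2X cells they were -0.52 for Trdn, -0.53 for Jph1, -0.33 for Cacna2d1, -0.33 for Cacng1, -0.15 for Ryr1 and -0.29 for Stac3. Within fast 2A cells Cacng1 (-0.26) and Cacna2d1 (-0.23) stayed below 0, while Jph1 had -0.14, Trdn 0.07, Ryr1 0.10 and Stac3 0.11.

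The 592 cells left out by the filters had all 10 members past 1.5-fold lower than the kept cells, as were 67.5% of the 9756 genes tested. A median of 47.999% of their counts was mitochondrial, and they had a median of 16032 counts. When mitochondrial counts were removed from both totals, the median log2 ratio of the members was -0.38 and that of all genes 0.02. On that scale Stac3 (-0.97) and Trdn (-0.84) were farthest below the kept cells, with 1537 against 2747 CPM for Trdn, whereas Cacna2d1 (-0.13), Jsrp1 (-0.15) and Cacnb1 (-0.17) differed least. Ryr1 had -0.19. The cells left out included 90 of the 93 fragments. Fewer fibre transcripts in a cell and more RNA of other kinds cannot be told apart in these values.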

How the data were processed

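Single FDB fibres and 93 fibre fragments of 1 mouse were measured, 763 cells in all. The authors mapped reads to GRCm38 with STAR 2.5.4b, counted UMIs per gene with featureCounts through zUMIs, and deposited 1 table of UMI counts, listed here as a table of expected counts because rows of cell descriptions share its columns. All gene values in it are whole numbers. Here, the counts of a class were added up and divided by the class total to give CPM, with exact Poisson limits, and ratios had exact conditional binomial limits (95%). A gene was called past 1.5-fold among those with at least 500 counts in the 2 classes, leaving out the myosin genes that set the class. No test across cells was run, since 1 mouse gives no replicate. Correlations used log2(CPM + 10). The script for ratios was tested on simulated data.

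All 10 members are named. Pathway genes are named when past 1.5-fold or among the 3 most counted of their list, and the 5 genes most like the mean of the members by Spearman correlation are named. Some genes of the lists are not reported here and enter no count or median of a list. The members and lists were chosen with earlier results of these data known. Exon lengths and overlaps came from the GENCODE annotation of GRCm38, promoters from RefSeq. Gene names in 2 rows (2 names) were left out of the ratios. Alternatives comprised TMM factors (edgeR 4.0.16, R 4.3.3), other totals and averages, thinning, other filters, lanes and plates. Python 3.11.15, numpy 2.4.6, pandas 2.3.3, scipy 1.17.1 and matplotlib 3.10.9 were used. Depth ranged from 28827 to 1542996 counts per kept cell, which leaves few counts of Cacna1s and Stac3 in the shallower cells. PCR copies were merged by UMI.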

Additional observations from a re-analysis of the deposited data

How the results depend on the processing

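No paired analysis was possible because all cells belong to 1 group from 1 mouse and no comparison between samples was tested. The 20 other settings tried left the log2 ratio of fast 2A over fast 2X below 0 for Cacnb1, Cacna2d1, Cacng1, Jph1, Jph2, Trdn and Jsrp1 in 20 of 20, for Ryr1 in 19 and for Cacna1s in 11, and Stac3 was below 0 in 3. Cacng1 was past 1.5-fold in 18, Jph1 in 15 and Cacna2d1 in 11. Of the 8646 genes tested, 632 were past 1.5-fold lower as reported and 389 with TMM factors. After thinning 1123 were, without hybrid cells 2094, and on single plates from 1336 to 2154. The median over the members was -0.30 as reported, -0.19 with TMM factors and -0.21 with the median of all genes subtracted. It was -0.23 as a mean over cells, -0.16 after thinning in 1 random draw, -0.48 without hybrid cells and -0.24 on lane 2. The median over all genes was -0.09 as reported, 0.02 with TMM factors, -0.06 as a mean over cells and -0.07 after thinning. Without hybrid cells it was -0.23, and on lane 2 it was -0.11. On plates 705, 708 and 709 the member median was -0.40, -0.43 and -0.53, and that of all genes -0.08, -0.02 and -0.004. The count past 1.5-fold was 3 as reported, 1 with TMM factors, with the median subtracted and on plate 708, and 0 past a fold of 2. It was 2 as a mean over cells, after thinning, on lane 2 and on plate 707. The count was also 2 with totals without mitochondrial genes and with mitochondrial ribosomal RNA left out of the filter. Without hybrid cells and on plate 705 it was 4, with Cacna1s (1.36) higher on that plate. Leaving out the 8 cells with low muscle markers, added after the data were seen, gave -0.31 and 3. The cause of these changes was not tested. Depth limits Cacna1s and Stac3, and 1 mouse limits every value, since the spread between mice is unknown.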
